A study of Mus musculus with 2 samples.

Results

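The 7 genes that encode subunits of the NMDA receptor were examined in an EGR1 ChIP-seq peak list from mouse frontal cortex. In ChIP-seq, an antibody pulls down a protein together with the DNA it is crosslinked to, and stretches of the genome recovered above the surroundings are called as peaks. A peak was assigned to a gene when its centre lay in the gene body or within 10 kb of one of the gene's annotated transcription start sites (TSSs), on the mouse build mm10 with GENCODE release M21. By this rule 17 of the 12014 deposited peaks belonged to 5 of the 7 genes, which are Grin1, Grin2a, Grin2b, Grin2c and Grin2d. Grin3a and Grin3b had none.

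The tissue came from male F1 hybrids of 129SvEv mothers and C57BL/6N fathers at an age of 6 weeks. The labels name no engineered allele and no treatment. Each of the 2 ChIP experiments pooled the cortices of 4 to 5 mice. Cortex tissue mixes cell types, so the cells that carried a given peak cannot be told apart. The deposited list merges both experiments and gives, for each peak, its position and its irreproducible discovery rate (IDR). A low IDR marks a peak with a strong and similar rank in the 2 experiments. It holds no read counts and no values of the single experiments, so the depth is unknown and no spread between replicates could be computed. The series also has an input DNA sample, which was not analysed here.

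NMDA receptors are glutamate-gated channels that let calcium into neurons when presynaptic release and postsynaptic depolarization coincide, and they are known for triggering lasting changes in synaptic strength. Every receptor contains the obligatory GluN1 subunit, encoded by Grin1, which binds the co-agonist glycine or D-serine. It assembles with GluN2 subunits (Grin2a to Grin2d), which bind glutamate and set the kinetics of the channel, or with GluN3 subunits (Grin3a and Grin3b), which bind glycine. In the forebrain GluN2B is prominent early in life and GluN2A increases after birth. EGR1 is a zinc-finger transcription factor whose own gene is switched on rapidly by synaptic activity, and it binds GC-rich DNA around a 9-base word written GCGTGGGCG or GCGGGGGCG.

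This 9-base word, searched on both strands, occurred 3 times in the 1311 kb made up of the 7 genes and 10 kb to each side. All 3 copies read GCGGGGGCG on the strand of the gene. They are shown because 2 of them lay in a peak and the other did not. The 30 bases around each are given 5′ to 3′ on the strand of the gene, with the word in capitals.
Grin1, chr2:25319165-25319194: cgcgtcaggaaGCGGGGGCGgtgggagggg
Grin2b, chr6:136172458-136172487: tgtgagtgcgcGCGGGGGCGcgtgcgcgtc
Grin2c, chr11:115267143-115267172: gcgggccgggcGCGGGGGCGggcggcattc
The Grin1 copy lay 8 bp from a TSS, in a peak. The Grin2b copy, 583 bp from the nearest TSS of the gene, also lay in a peak. The Grin2c copy lay 86 bp downstream of the gene's first TSS, in its 5′UTR, and the nearest peak centre was 8796.5 bp away. Over all assembled chromosomes 2150 of 7559 copies lay in a peak (28.4%, 95% Wilson interval 27.4 to 29.5), against 2 of 3 at the NMDA receptor genes (66.7%, 20.8 to 93.9). With 3 copies the interval spans most of the possible range. All sequences are those of the C57BL/6J reference GRCm38.p6, which the hybrid mice need not share at every base.

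The subunit genes differed in where their peaks lay. Peaks within 1 kb of a TSS of the same gene, called start-site peaks here, were found at Grin1 (1), Grin2a (3) and Grin2b (1). Grin2c and Grin2d had peaks only elsewhere. For comparison, 39.6% of the 21938 protein-coding genes had a peak by the same rule (5 of the 7 subunit genes), and 28.1% had a start-site peak (3 of 7). Genes longer than 100 kb had a peak more often (61.6%) than genes of 20 kb or less (31.3%), and Grin2a, Grin2b and Grin3a are among the long ones. The 7 genes are too few for these shares to be set apart from the background, and no test was made.

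**Figure D1:**
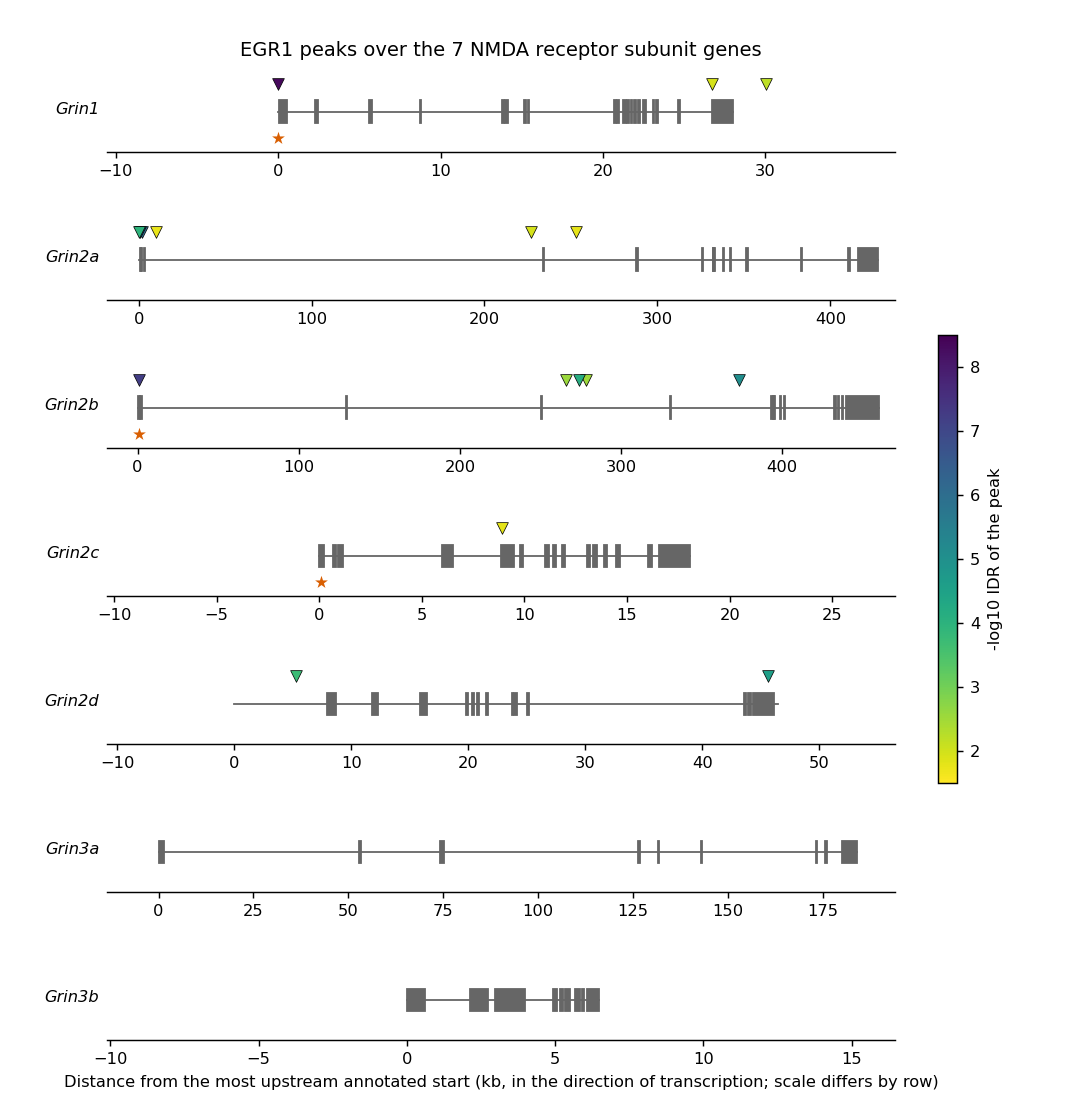
The 7 subunit genes from their most upstream annotated start, drawn in the direction of transcription in kb, with exons of the principal transcript as boxes. Triangles are the 17 assigned peaks, coloured by −log10 IDR, and stars mark the 3 exact EGR1 words. Grin2a and Grin2b have peaks at the start and deep in introns, Grin2c and Grin2d only away from an own start, and Grin3a and Grin3b have none.

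Grin1 (ENSMUSG00000026959.13) lies on the minus strand at chr2:25291181-25319187 and is 28.0 kb long. Its start-site peak, chr2:25319090-25319330, had an IDR of 4.36e-09, which ranked 4 among all 12014 peaks. The peaks ranked above it were nearest to Dynlt1b, Fbxo21 and Shcbp1l. The peak straddles the start of the gene, with its centre 23 bp upstream of the first TSS and 90 bp upstream of that of the principal transcript. Of its 241 bp, 98 lie in annotated 5′UTR and the rest upstream of the gene. It holds the exact EGR1 word shown above and 2 further copies with 1 mismatch, GCGTTGGCG and ACGTGGGCG. Both lie in the upstream part, given here on the gene's strand with the copies in capitals, where the first of them appears as its reverse complement.
Grin1 upstream part, chr2:25319188-25319330: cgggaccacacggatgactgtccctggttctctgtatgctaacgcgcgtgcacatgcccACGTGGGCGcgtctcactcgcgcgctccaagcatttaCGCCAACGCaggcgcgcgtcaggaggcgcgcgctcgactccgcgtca
The peak held 33 CpG dinucleotides. Its ratio of observed CpGs to those its C and G content would give (CpG ratio) was 1.20, and 0.829% of all peaks had a ratio as high. Equally wide windows at a distance of 5 kb on either side had a mean CpG ratio of 0.10. The RefSeq promoter of Grin1 (250 bases before to 50 after the start) contains 1 exact EGR1 word, as do 3.47% of the 32851 mouse promoters in the same table. Of the 7 genes 4 matched this table, and besides Grin1 these were Grin2c, Grin2d and Grin3b. None of those other promoters contains the word or overlaps a peak.

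The other peaks at Grin1 had much higher IDRs and lay at the far end of the gene. The peak at chr2:25292323-25292572 (IDR 0.0109) is centred on coding sequence in exon 20, the last exon of the principal transcript. The TSS nearest to it belongs to the antisense gene Grin1os, at 1227.5 bp. The peak at chr2:25289007-25289256 (IDR 0.00637) lies beyond the end of the gene, and came in through a short noncoding Grin1 transcript that starts 7547.5 bp away. It is nearer to Lrrc26, whose TSS is 783.5 bp away. Neither holds an exact EGR1 word, and the latter is the only one of the 17 peaks with the AP-1 word TGANTCA, which binds FOS and JUN proteins.

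Grin2a (ENSMUSG00000059003.12), on the minus strand at chr16:9567898-9995560, had 6 peaks, the most of the 7 genes. As many or more were found at 0.346% of protein-coding genes, and at 1.73% of those longer than 100 kb. It had 3 start-site peaks, and 3 or more of these were found at 0.720% of protein-coding genes and at 1.12% of those longer than 100 kb. The first, chr16:9995334-9995595 (IDR 0.000108), covers the most upstream start and in RefSeq transcripts lies wholly in 5′UTR. The second, chr16:9994648-9994833 (IDR 5.65e-07), is centred 182.5 bp downstream of the start of the principal transcript, in intron 1. The third, chr16:9993402-9993651 (IDR 7.62e-07), lies 743.5 bp downstream of its nearest start, in intron 2 of the principal transcript. Of the 6 annotated starts of Grin2a, 5 had a peak centre within 1 kb.

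No peak at Grin2a held the exact EGR1 word, although each of its start-site peaks held 1 or 2 copies with 1 mismatch. The start-site peaks with the lower IDRs are shown without bases in UTRs, on the strand of the gene, with these copies in capitals.
Grin2a intron 1 peak, chr16:9994648-9994822: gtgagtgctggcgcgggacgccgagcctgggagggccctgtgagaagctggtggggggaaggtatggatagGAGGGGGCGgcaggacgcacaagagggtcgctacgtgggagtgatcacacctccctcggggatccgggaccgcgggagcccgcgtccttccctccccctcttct
Grin2a intron 2 peak, chr16:9993402-9993651: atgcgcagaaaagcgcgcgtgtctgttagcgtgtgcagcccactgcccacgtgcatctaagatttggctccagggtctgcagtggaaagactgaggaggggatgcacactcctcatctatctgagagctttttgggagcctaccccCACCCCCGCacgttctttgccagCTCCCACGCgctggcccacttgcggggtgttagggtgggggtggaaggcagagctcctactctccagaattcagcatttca
The copy in the intron 1 peak, GAGGGGGCG, is centred 6.5 bp from the centre of the peak. The intron 2 peak holds GCGGGGGTG and GCGTGGGAG on the opposite strand and also contains the E-box CACGTG. The CpG ratio fell along the gene from 0.90 in the first peak to 0.70 and 0.52 in the next ones.

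The 3 remaining Grin2a peaks are intronic, and all had IDRs above 0.01. The peak at chr16:9985183-9985432 (IDR 0.0181) lies in intron 3, 7225.5 bp from the nearest start. Those at chr16:9768540-9768801 (IDR 0.0111) in intron 3 and chr16:9742519-9742768 (IDR 0.0171) in intron 4 lie 226252 and 252280 bp downstream of the principal start. None of the 3 holds an EGR1 word, even with 1 mismatch. All 6 peaks at Grin2a had a Grin2a start as their nearest TSS, which held for no other subunit gene.

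**Figure D2:**
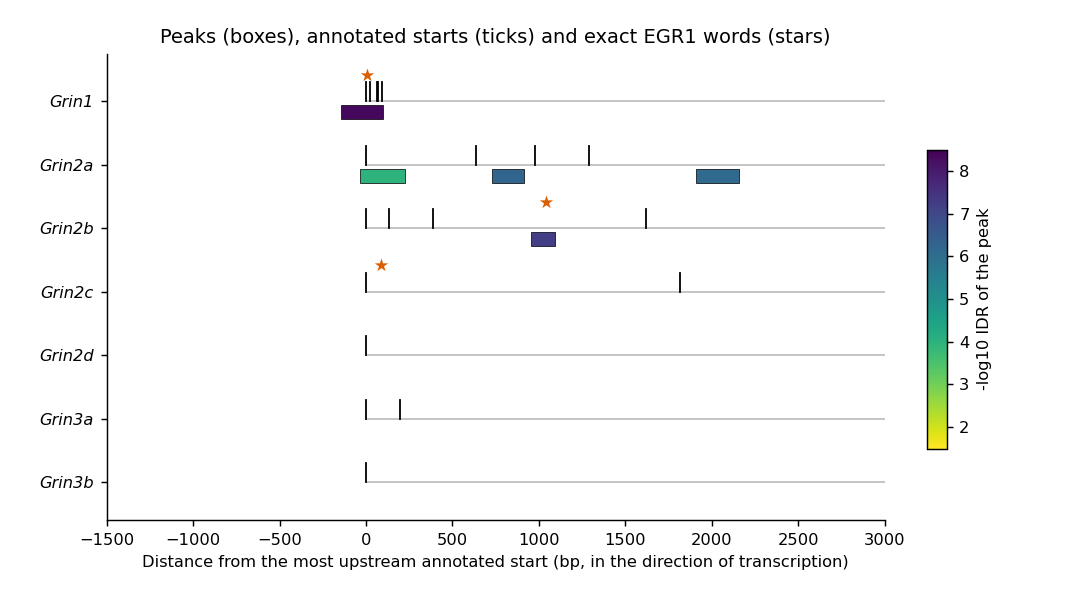
The region around the starts of each subunit gene, as distance in bp from its most upstream annotated start. Boxes are peaks coloured by −log10 IDR, ticks are annotated starts and stars are exact EGR1 words. The Grin1 and Grin2b words coincide with a peak, whereas the Grin2c word, 86 bp from the start, has no box under it.

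Grin2b (ENSMUSG00000030209.14), on the minus strand at chr6:135713233-136173511, had 5 peaks, and 0.802% of protein-coding genes had as many or more, as did 3.37% of those longer than 100 kb. Its start-site peak, chr6:136172417-136172554, had an IDR of 5.97e-08 (rank 521) and was the narrowest of the 17, at 138 bp. It is centred in intron 1 of the principal transcript, 639.5 bp downstream of its start and 596.5 bp upstream of the start of a shorter transcript. RefSeq transcripts place 62 of its bases in 5′UTR. The antisense gene Gm26653 starts 575.5 bp away and is slightly nearer. The peak held 1 exact EGR1 word and 3 copies with 1 mismatch, and the exact one and 2 of the others form a single run, capitalized below in the part outside UTRs.
Grin2b start-site peak, chr6:136172417-136172492: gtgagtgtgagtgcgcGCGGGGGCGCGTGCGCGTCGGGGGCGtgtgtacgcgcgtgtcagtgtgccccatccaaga
This peak had the highest GC content of the 17, at 73.9%, and a CpG ratio of 1.19, which 0.896% of all peaks reached. None of the 4 annotated start positions of Grin2b had an exact word in the 250 bases before and 50 after it, and the most upstream one lay 1025.5 bp from the peak centre.

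The other 4 peaks at Grin2b lie 264038 to 371752 bp from any of its starts, in introns 4 and 5. A cluster of 3 lies in intron 4, at chr6:135907727-135907976 (IDR 0.00278), chr6:135899309-135899558 (IDR 7.44e-05) and chr6:135894902-135895165 (IDR 0.00294). The remaining one, chr6:135800012-135800261 in intron 5, had the lowest IDR of the peaks outside start sites, at 8.35e-06. These 4 are nearer to TSSs of noncoding genes (Gm14330, an antisense gene, and Gm22892, annotated as a miRNA) than to those of Grin2b, but Grin2b is the nearest protein-coding gene for each. The middle peak of the cluster and the intron 5 peak are shown on the strand of Grin2b, to contrast a distal peak that has 2 copies of the word with 1 mismatch (capitals) with one that has none.
Grin2b intron 4, chr6:135899309-135899558: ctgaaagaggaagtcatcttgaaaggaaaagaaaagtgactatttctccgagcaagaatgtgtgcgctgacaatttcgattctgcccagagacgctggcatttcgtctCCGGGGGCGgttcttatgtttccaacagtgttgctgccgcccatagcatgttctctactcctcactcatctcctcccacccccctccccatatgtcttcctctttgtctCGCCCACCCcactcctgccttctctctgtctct
Grin2b intron 5, chr6:135800012-135800261: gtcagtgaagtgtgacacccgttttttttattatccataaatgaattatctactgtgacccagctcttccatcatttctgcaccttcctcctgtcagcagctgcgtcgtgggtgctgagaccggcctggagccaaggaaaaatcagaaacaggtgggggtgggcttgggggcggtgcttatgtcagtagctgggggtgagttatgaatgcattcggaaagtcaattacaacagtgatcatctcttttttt
Their GC contents were 51.6% and 47.6%, well below that of the start-site peak, and their CpG ratios were 0.58 and 0.43.

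Grin2c (ENSMUSG00000020734.13), whose subunit is best known from cerebellar granule cells, is an 18.1-kb gene on the minus strand at chr11:115249169-115267243. Its single peak, chr11:115258229-115258492, had an IDR of 0.0168 and lies on coding sequence in exon 5. It is 7068.5 bp from the nearest Grin2c start and holds 1 copy of the EGR1 word with 1 mismatch, as well as 4 copies of the SP1 word GGGCGG. The first start of Grin2c was GC-rich, at 70.0% over the 250 bases before and 50 after it, with 4 copies of the EGR1 word with 1 mismatch. The exact word printed above lies just downstream of this window. The same window at the first start of Grin1 held 3 such copies, the exact one included. The nearest peak centre was 8882.5 bp from the first Grin2c start, against 23 bp at Grin1.

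Grin2d (ENSMUSG00000002771.12), known for slow channel closing and for expression in interneurons, lies on the minus strand at chr7:45831883-45878378. Both of its peaks are close to other genes' starts. The peak at chr7:45873005-45873268 (IDR 0.000183) is centred 9.5 bp from a TSS of Kdelr1, which encodes a receptor that returns proteins to the endoplasmic reticulum. It lies 2707.5 bp upstream of the start of the principal Grin2d transcript. The peak at chr7:45832605-45832864 (IDR 2.66e-05) is centred in the 3′UTR of Grin2d, in exon 13. There the antisense gene Gm45441 starts 1131.5 bp away, and the ribosome biogenesis gene Grwd1 is the nearest protein-coding gene, at 1790.5 bp. It held 2 adjoining copies of the EGR1 word with 1 mismatch, shown in capitals on the Grin2d strand, where they appear as reverse complements.
Grin2d 3′UTR site, chr7:45832740-45832769: gcccccCACCCCCGCCGCCCCCTCggtcag

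Grin3a and Grin3b, the glycine-binding GluN3 subunits that lower calcium entry through the receptor, had no assigned peak. Grin3a (ENSMUSG00000039579.15, chr4:49661611-49845744) is 184.1 kb long and was the only one of the 3 long subunit genes without a peak. The peak nearest to it lay 29632.5 bp past its 3′ end, 27.5 bp from the TSS of Rnf20 (IDR 5.28e-05). The start of its protein-coding transcripts had a CpG ratio of 0.73 in the 250 bases before and 50 after it, and held no exact EGR1 word. Grin3b (ENSMUSG00000035745.9, chr10:79970715-79977190) is the shortest, at 6.48 kb, and the window at its first start was 48.0% GC, with a CpG ratio of 0.17. A peak at chr10:79984865-79985128 (IDR 9.11e-06) just missed the rule for Grin3b, at 10587.5 bp from its nearest start and 7806.5 bp past its end. The member closest to that limit from within was the third Grin1 peak, at 7547.5 bp.

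The 17 peaks had a median IDR of 0.000183, against 0.000325 over the 11938 peaks on assembled chromosomes. An IDR of 0.001 or less was found for 9 of the 17 (52.9%, 95% Wilson interval 31.0 to 73.8) and for 59.5% of all peaks (58.6 to 60.4). All 5 start-site peaks were below 0.001, with a highest value of 0.000108, whereas 4 of the 12 other peaks were. The lowest IDR of the 12 others, 8.35e-06, was still higher than those of 4 of the 5 start-site peaks. Over the whole list, 67.6% of peaks within 1 kb of any TSS and 47.5% of those over 2 kb from every TSS were at 0.001 or less. The 12 others at subunit genes are a mixed set in this respect. The 2 Grin2d peaks and the 2 Grin1 peaks among them lie 9.5 to 1227.5 bp from another gene's TSS. The nearest TSS was one of the gene itself for 7 of the 17 peaks (41.2%, 21.6 to 64.0). When only TSSs of protein-coding genes were considered, this number was 13 (76.5%, 52.7 to 90.4). Intervals cover counting error over peaks only.

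**Figure D3:**
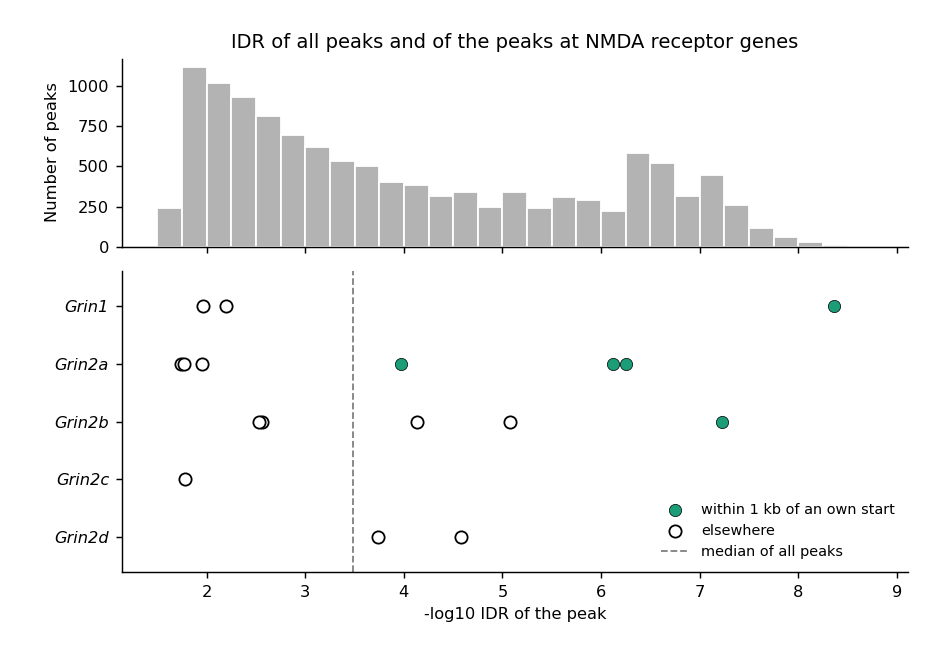
Top, number of peaks on assembled chromosomes by −log10 IDR; bottom, the 17 peaks at NMDA receptor genes on the same axis. Filled points lie within 1 kb of a TSS of the gene and open points elsewhere, and the dashed line is the median of all peaks. The 5 filled points all lie to the right of the median, and Grin1 is farthest out at an IDR of 4.36e-09.

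The exact EGR1 word was found in 2 of the 17 peaks (11.8%, 95% Wilson interval 3.29 to 34.3), and 16.6% of all peaks had it. Both were start-site peaks, at Grin1 and Grin2b. With 1 mismatch allowed, the word was found in 11 of 17 peaks (64.7%, 41.3 to 82.7) and in 69.8% of all peaks. All 5 start-site peaks then held it (56.6% to 100% by the same interval), as did 83.1% of all peaks within 1 kb of any TSS. Of the 12 others, which are not all 2 kb from every TSS, 6 held it (25.4% to 74.6%). Of all peaks over 2 kb from every TSS, 49.1% did. The intervals at the subunit genes include the shares over the whole list. Among words of other factors, GGGCGG (SP1, which can overlap the EGR1 word) occurred in 9 of 17 peaks and in 55.8% of all peaks. The E-box CACGTG occurred in 2, TGANTCA in 1 and the CRE TGACGTCA, bound by CREB, in 0 of the 17. The shares over all peaks were 7.46%, 6.48% and 1.30%. A match is a description of the sequence and does not show that a factor was bound.

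The start-site peaks were also richer in CpG. Their CpG ratios were 0.52, 0.70, 0.90, 1.19 and 1.20, with a median of 0.90, and those of the 12 others ranged from 0.06 to 0.69 with a median of 0.43. The groups overlapped between 0.52 and 0.69, where the third Grin2a peak had a lower ratio than the exonic peaks of Grin1, Grin2c and Grin2d and the middle peak of the Grin2b cluster. Over the whole list the medians were 0.78 within 1 kb of a TSS and 0.29 beyond 2 kb of every TSS. Those peaks at subunit genes that also lay beyond 2 kb of every TSS had a median of 0.42. Of the 17 peaks, 15 had a higher CpG ratio than the mean of their flanking windows, as did 10194 of the 11938 peaks on assembled chromosomes. The exceptions among the 17 were the third Grin1 peak (0.11 against 0.12) and the last peak of the Grin2b cluster (0.06 against 0.11).

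**Figure D4:**
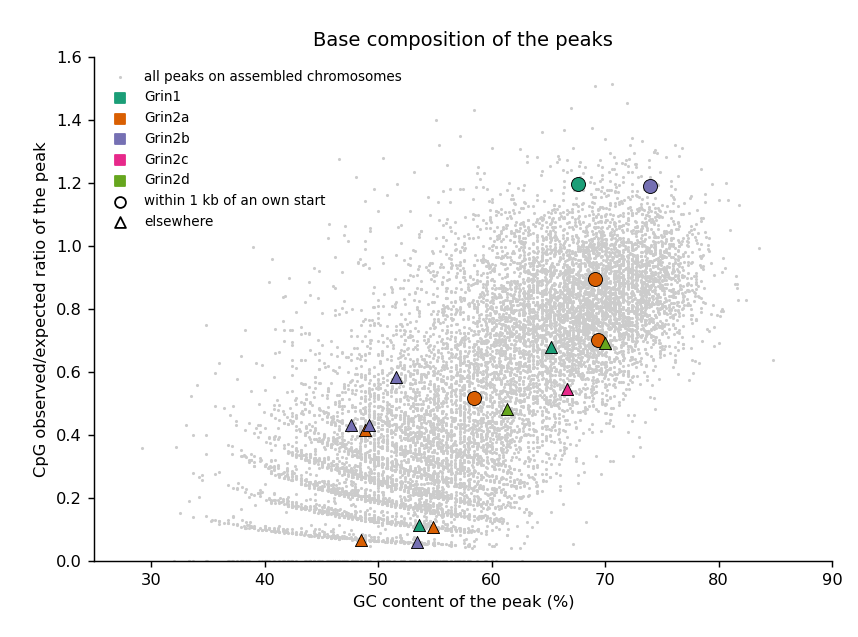
CpG ratio against GC content in % for all peaks on assembled chromosomes (grey) and the 17 peaks at NMDA receptor genes (coloured by gene). Circles lie within 1 kb of a TSS of the gene and triangles elsewhere. The Grin1 and Grin2b start-site peaks are at the top, at ratios of 1.20 and 1.19, and the intronic peaks of Grin2a and Grin2b away from the starts are at lower GC contents and ratios.

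Other families of neurotransmitter receptors were set beside the NMDA receptors by the same rule. Their counts are to be read against 39.6% of all protein-coding genes with a peak and 28.1% with a start-site peak, or 61.6% and 41.2% of those longer than 100 kb. The median gene length was 319 kb for AMPA and kainate, 318 kb for metabotropic glutamate and 91.1 kb for GABA-A receptors, against 46.5 kb for NMDA receptors. Of 9 AMPA and kainate receptor genes, which carry fast glutamate transmission, 7 had a peak and 5 a start-site peak. Kainate receptor gene Grik4 had the most, with 7, none of them at a start, and Gria4 and Grik1 had none. Of 8 metabotropic glutamate receptor genes, which signal through G proteins, 7 had a peak and 5 a start-site peak. Grm4 had the most (3), and Grm6, which is known from the retina, had none. Of 16 genes for GABA-A receptors, the main inhibitory channels, 7 had a peak, and each of these 7 had one at a start. Summed over genes, there were 17 peaks at the NMDA, 15 at the AMPA and kainate, 10 at the metabotropic and 15 at the GABA-A receptor genes. The lowest start-site IDR in the other families was 8.73e-08, at Gabrg3, and the Grin1 and Grin2b start-site peaks were below it, at 4.36e-09 and 5.97e-08. No test was made between the families, whose genes differ in length.

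Genes for proteins that work with the receptor also had peaks. Of 25 such partners, 22 had a peak and 16 a start-site peak, with 68 peaks in all. The shares over all protein-coding genes were 39.6% and 28.1%, and over those longer than 100 kb 61.6% and 41.2%. The partners had a median length of 62.5 kb, and no test was made. Among 8 scaffold proteins of the postsynaptic density 7 had a peak, the exception being Dlg1, and among 11 kinases, phosphatases and Ras regulators 10 had one, the exception being Rasgrf2. Both auxiliary and trans-synaptic genes, Neto1 and Ephb2, had peaks. Of 4 genes that control the co-agonists glycine and D-serine, Slc7a10 had none. The 5 lowest start-site IDRs were found at Ppp3cb (2.91e-08), Ptpn5 (5.58e-08), Shank1 (6.20e-08), Ppp3ca (7.23e-08) and Shank3 (7.87e-08). Ppp3ca and Ppp3cb encode catalytic subunits of calcineurin, the phosphatase activated by calcium and calmodulin, and Ptpn5 encodes STEP, a phosphatase that acts on GluN2B. The Shank genes encode scaffolds that lie beneath the receptor complex. Each of these IDRs was higher than that of the Grin1 start-site peak, and only that of Ppp3cb and that of Ptpn5 were below that of the Grin2b start-site peak.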

How the data were processed

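EGR1 ChIP-seq of frontal cortex was analysed from 1 deposited peak list. According to the study's methods the paired-end reads of 100 bp were quality-trimmed and aligned to mm10 with Bowtie, SPP peaks were called for each of 2 replicates, and those within an IDR of 2% were merged by the authors. The submitters' processing notes list cutadapt 11.2, Bowtie2 2.2.9 and bedtools 2.26.0. The deposited value of each peak is this IDR, which the authors computed and which is read like a q-value. Read counts, depth and single-replicate lists were not analysed here, so no test was made, and shares over peaks carry 95% Wilson intervals, which cover counting error alone.

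Starts in the list were taken as counted from 0, and positions are printed counted from 1. Genes and TSSs came from GENCODE M21, promoters and some UTRs from RefSeq, and sequence from GRCm38.p6, which is mm10. The 76 peaks on scaffolds were left out of sequence results. The CpG ratio is the number of CpGs times the length, divided by the product of the numbers of C and G. All 7 genes and their peaks were described. In addition, the gene of the TSS nearest to each peak was named, the gene with the most peaks in each other receptor family, genes without a peak where a list had 5 or fewer, and the 5 partners with the lowest start-site IDR. 1 result under this rule is not reported here. Gabrg3 and the genes of the top 3 peaks were chosen after their values were seen, as was the split by gene length. The members and all lists were chosen with earlier results of these data known. Scripts ran in Python 3.11.15 with pyfaidx 0.9.0.4, scipy 1.17.1, matplotlib 3.10.9, pandas 2.3.3 and numpy 2.4.6. On simulated data, 200 of 200 peak assignments and the motif state of 400 of 400 sequences were recovered.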

Additional observations from a re-analysis of the deposited data

How the results depend on the processing

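Of 57 alternatives, 49 left the value within 1.5 times the count or within the 95% interval of the share or median. Grin1, Grin2a and Grin2b had a start-site peak under each IDR limit, transcript type and counting of positions tried. With a limit of 500 bp from an own TSS in place of 1 kb, 2 genes instead of 3 had one, since the Grin2b peak is centred 596.5 bp from its nearest TSS. Grin3a and Grin3b had no peak under any alternative for the assignment of peaks, but none of these extended the reach beyond 10 kb. A wider reach could have added the peak that lies 10587.5 bp from a Grin3b start. Grin2c lost its peak at an IDR of 0.01 or less. The number of peaks at subunit genes was 9 instead of 17 at an IDR of 0.001 or less and also among the 50% of peaks with the lowest IDR, and 10 with gene bodies left out. The share with the EGR1 word was 64.7% with 1 mismatch. The share of peaks nearest to a TSS of the gene itself was 76.5% with TSSs of protein-coding genes only. The median CpG ratio was 0.90 in start-site peaks alone. AMPA and kainate receptor genes with a start-site peak numbered 3 instead of 5 at an IDR of 0.001 or less and among the 50% of peaks with the lowest IDR. Each of these follows from which peaks, starts or words are counted. No replicate could be left out, and no paired analysis was possible because both experiments were deposited as a single merged list. The depth behind a peak is unknown, so a gene without a peak may have EGR1 binding that this list does not show.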
